A study of Mus musculus with 173 samples.

Results

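The expression of 9 transcription factors of the granule neuron lineage was followed through single cells of the adult mouse dentate gyrus, a part of the hippocampus where stem cells still produce granule neurons in the adult. They were chosen as a list of gene symbols, and all 9 were present among the 23307 genes of the expression table. They are Eomes, Neurog2, Neurod1, Neurod2, Neurod4, Neurod6, Insm1, Prox1 and Tbr1. The libraries came from the brains of C57BL/6 mice aged 8 to 12 weeks, and each was made from the total RNA of a single cell. The 172 libraries carry titles that begin with C, N or R, and these letters, which the labels do not explain, give 3 classes. R has 4 cells, N has 26 and all the rest are C. No genotype, transgene, treatment, sort, animal or date is given for any class. The study set out to profile quiescent stem cells of the hippocampus and the cells they give rise to directly. Because no animal is named, each class is 1 sample, cells are not replicates and no test of a class difference can be made. Standard deviations and intervals therefore describe cells, and the exact Clopper-Pearson 95% intervals cover counting error only.

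In the adult dentate gyrus, radial glia-like stem cells divide rarely and give rise to dividing intermediate progenitors, which become neuroblasts and then granule neurons. Neurog2 is a proneural basic helix-loop-helix factor of early progenitors. The T-box factor Eomes, also called Tbr2, marks intermediate progenitors of the glutamatergic lineage, and Insm1 is a zinc finger factor of dividing and newly differentiating neuronal progenitors. Neurod1, Neurod2, Neurod4 and Neurod6 are basic helix-loop-helix factors of neuronal differentiation, and Neurod1 is needed for newborn granule neurons to survive and mature. Tbr1 is a T-box factor of postmitotic glutamatergic neurons, and the homeodomain factor Prox1 specifies and maintains granule cell identity.

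The promoters of 3 members are shown because these genes differ in where they were found. Eomes was found mainly in cells with few stem cell transcripts, and Neurod2 often in cells high in lists of other cell types. Prox1 was found in cells with stem cell transcripts at levels close to those of other C cells. Each sequence is the RefSeq window of 250 bases before and 50 bases after an annotated start in build GRCm38.p6. Capitals mark the E-box CAGATG (or CATCTG, its match on the other strand), a site that Neurog and Neurod factors are known to bind. The Prox1 window is chr1:190170778-190171077 on the minus strand. The Neurod2 window is chr11:98329596-98329895, also on the minus strand. The Eomes window is chr9:118477939-118478238 on the plus strand.

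Prox1: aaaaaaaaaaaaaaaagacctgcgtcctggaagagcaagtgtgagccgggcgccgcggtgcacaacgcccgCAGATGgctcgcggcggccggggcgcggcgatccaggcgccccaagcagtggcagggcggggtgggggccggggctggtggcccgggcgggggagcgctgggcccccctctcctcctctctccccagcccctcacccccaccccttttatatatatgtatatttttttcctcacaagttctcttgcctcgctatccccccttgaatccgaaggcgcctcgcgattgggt

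Neurod2: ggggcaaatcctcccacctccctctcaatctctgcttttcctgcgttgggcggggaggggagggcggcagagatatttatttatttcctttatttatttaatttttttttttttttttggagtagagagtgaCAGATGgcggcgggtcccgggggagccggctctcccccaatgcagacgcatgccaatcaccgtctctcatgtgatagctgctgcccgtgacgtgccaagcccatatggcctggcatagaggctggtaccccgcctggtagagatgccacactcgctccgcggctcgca

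Eomes: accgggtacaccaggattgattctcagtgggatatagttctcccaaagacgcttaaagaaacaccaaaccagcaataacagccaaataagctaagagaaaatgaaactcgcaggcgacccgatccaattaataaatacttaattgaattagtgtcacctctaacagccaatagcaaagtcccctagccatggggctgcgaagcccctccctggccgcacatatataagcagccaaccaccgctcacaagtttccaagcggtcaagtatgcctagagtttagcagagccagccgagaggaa

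Promoter windows were found for 8 of the 9 members, 10 windows in all. The letters CAGATG or CATCTG occurred in 1 of the 2 Prox1 windows and in the Neurod2 window, and in none of the other 8. Of all 32851 mouse promoter windows of this length 17.2% held them. The E-box CAGCTG, which reads the same on both strands, occurred in 1 of the 2 Neurod4 windows, against 16.3% of all windows. A match is a description of these letters and shows no binding.

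Expression is given as TPM, a share of each library's transcripts, which divides by transcript length so that levels of different genes can be set side by side. The depth of each library is unknown, and an exact 0 may be a failed estimate, so such a gene is said only to be listed at 0. The number of genes reaching a TPM of 1 had a median of 3701 in C cells (range 1717 to 7192), 3565 in N cells (1600 to 4885) and 3240.5 in R cells (2476 to 3838). The mean log2(TPM + 1) of a list of 15 stem cell genes was at least 4 in all but 10 of the C libraries, in 4 of 26 N and in 3 of 4 R libraries. A list of mature neuron genes reached that mean in 7 C, 0 N and 4 R libraries. A mean of at least 4 in a list of oligodendrocyte progenitor, oligodendrocyte, endothelial, mural, microglia or mature neuron genes occurred in 16 C, 19 N and all 4 R libraries. These are called cells high in other lists, and results that rest on them are also given without them. No doublet caller was run. A column named C27 could belong to either of 2 samples whose titles begin that way, both C, and was used by its class.

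Each factor was below 1 TPM in most C cells and high in a small number of them. At a TPM of at least 1, Prox1 was present in 27 C cells, or 19.01% of the class (exact 95% interval 12.9 to 26.4), Neurod1 in 32 (22.5%, 15.95 to 30.3) and Eomes in 26 (18.3%, 12.3 to 25.7). Insm1 reached it in 21 C cells (14.8%, 9.39 to 21.7), Neurod2 in 15 (10.6%, 6.03 to 16.8) and Neurog2 in 13 (9.15%, 4.97 to 15.1). Neurod4 and Tbr1 reached it in 5 C cells each (3.52%, 1.15 to 8.03) and Neurod6 in 3 (2.11%, 0.438 to 6.05). Values at or above 10 TPM began at 10.3 for Neurog2, 10.4 for Neurod2 and 12.5 for Insm1, but at 115.5 for Neurod1. Not all factors thus had a gap at 10 TPM, and the level is a set one. This level of 10 TPM is used below as a second threshold for cells that were high in a factor. It changed the ranking of the factors: Prox1 led with 20 C cells, followed by Eomes with 16, Insm1 with 12, Neurod2 with 9 and Neurog2 with 8. Neurod1, the most often detected at 1 TPM, had 6 such cells, because 26 of its 32 detected cells lay between 1 and 10 TPM. Neurod4 had 4 such cells, Tbr1 had 2 and Neurod6 had 1.

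The level reached in the high cells also differed among the factors. Eomes ran from 13.9 TPM to 2744 TPM in its 16 high C cells, with a median of 107.3 TPM. Neurog2 ran from 10.3 to 582 TPM in 8 cells, with a median of 147 TPM, and Prox1 from 17.6 to 1068 TPM in 20 cells, with a median of 60.5 TPM. Insm1 was lower, from 12.5 to 175 TPM in 12 cells, with a median of 29.99 TPM. The highest single value belonged to Neurod1, at 3125 TPM in cell C131, and it had 1947 TPM in cell C138. Its other 4 high C cells had 499.98, 309.8, 194 and 115.5 TPM. Neurod2 stayed between 10.4 and 119.95 TPM in its 9 high cells. Neurod4 had 331, 76.4, 22 and 20.6 TPM in its 4 high cells. Averaged over all C cells on the log2(TPM + 1) scale, the levels ran from 1.09 ± 2.26 (SD) for Prox1, 0.98 ± 2.17 for Eomes and 0.82 ± 1.89 for Neurod1 down to 0.13 ± 0.70 for Neurod6. In between lay Insm1 at 0.62 ± 1.51, Neurog2 at 0.52 ± 1.71, Neurod2 at 0.46 ± 1.36, Neurod4 at 0.21 ± 1.05 and Tbr1 at 0.20 ± 1.02. Neighbours in this order of mean levels lay closer together than the spread between cells.

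**Figure D1:**
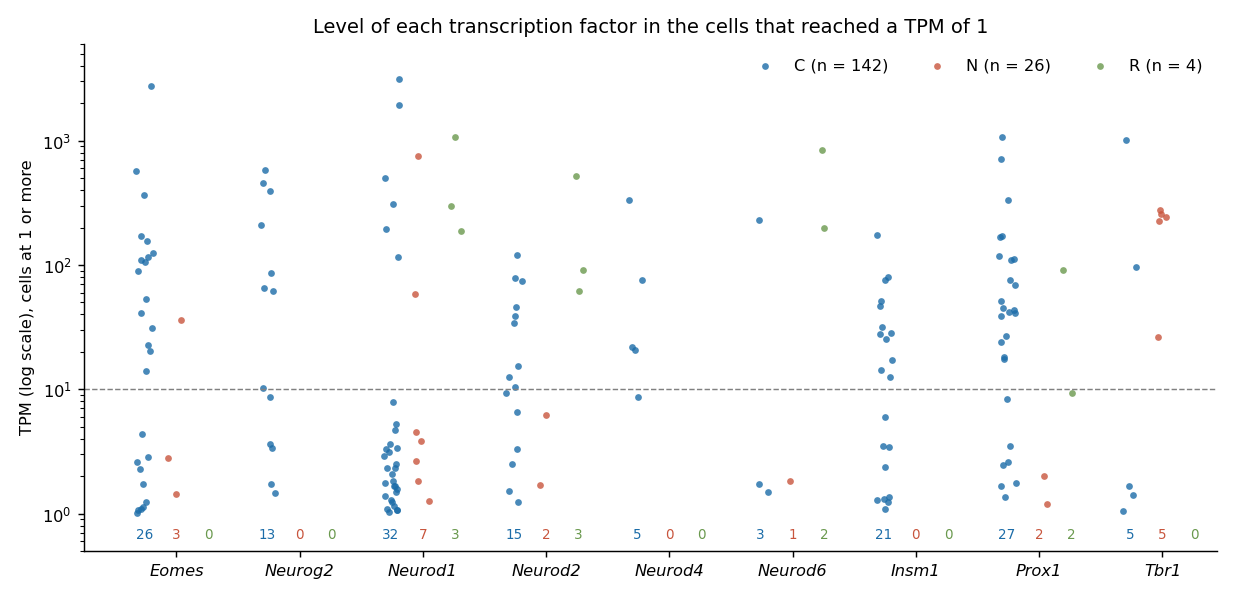
TPM (log scale) of each transcription factor in the cells that reached 1 TPM, with C cells in blue, N cells in red and R cells in green; each point is a cell, the numbers below are the cells plotted and the dashed line marks 10 TPM. Neurod1 has 26 C cells between 1 and 10 TPM, whereas Prox1 has 20 of its 27 C cells at or above 10 TPM.

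Set against N, the C cells had higher mean levels of Prox1, Eomes, Insm1 and Neurog2 and a lower mean of Tbr1. Prox1 averaged 1.09 ± 2.26 in C and 0.14 in N on the log2(TPM + 1) scale, and Eomes 0.98 ± 2.17 in C and 0.35 in N. Neurog2 and Neurod4 were listed at 0 in all 26 N cells, and Insm1 reached no more than 0.76 TPM there. Eomes reached a TPM of 1 in 3 N cells, with a highest value of 36.1 TPM, and Prox1 in 2 N cells, with a highest value of 2.02 TPM. A count of 0 in 26 cells still allows a share of up to 11.5% by a floor of 3 cells, or 13.2% by the exact interval. Mean log2 differences, C minus N, were 0.95 for Prox1, 0.63 for Eomes, 0.56 for Insm1, 0.52 for Neurog2, 0.24 for Neurod2 and 0.21 for Neurod4. Thus 7 of 9 members had a higher mean in C, Neurod6 by 0.004 on that scale, where 63.3% of all 12007 genes left by the filter (1 TPM in 5% of libraries or more) were higher in C. The members' share is close to that background, and 7 of the 9 members passed that filter, all but Neurod4 and Neurod6. None was at least 1 higher in C on the log2 scale (9.98% of all genes), and Tbr1 was at least 1 lower in C (4.19% of all genes). All of these differences were smaller than the SD between C cells except that of Tbr1. The Tbr1 difference was larger than its SD between C cells (1.02) but smaller than its SD between N cells (2.97). Without the cells high in other lists, 16 C and 19 N cells fewer, 5 of 9 members had a higher mean in C: Neurod2 then had a difference of -0.17, Neurod6 of -0.28 and Eomes of 0.28.

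Neurod1 and Tbr1 were the members with a higher mean in N. Neurod1 was detected at 1 TPM in 32 C cells (22.5%) and 7 N cells (26.9%, 11.6 to 47.8). The mean difference was -0.26, or -1.78 without the cells high in other lists, which left 7 N cells. In N it was high in 2 cells, N8 at 756 TPM and N1 at 57.9 TPM. N8 had the highest neuroblast list mean of the N cells, 6.35, and a stem cell list mean of 3.04. Tbr1 was at or above 10 TPM in 2 C cells (1.41%) and 5 N cells (19.2%, 6.55 to 39.4). Its mean difference was -1.30, or -4.34 without the cells high in other lists. With 7 N cells left, a few cells can carry such a value. Cells N19, N9, N13 and N18 had 276, 255, 244 and 227 TPM of Tbr1, and N10 had 26.2 TPM. The first 4 of these were also high in Reln (397 to 1891 TPM) and Trp73 (191 to 608 TPM), genes known from Cajal-Retzius neurons of the hippocampal region. Both genes were picked after their values were seen. In the 165 libraries without high Tbr1, Trp73 did not exceed 4.39 TPM and 1 library had Reln at 100 TPM or more. The 2 C cells with high Tbr1 had Reln at 0.48 TPM or listed at 0, and Trp73 listed at 0 in both. N10 had 0.69 TPM of Reln and an oligodendrocyte progenitor list mean of 7.17.

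Set against the 4 R cells, the C cells had far lower means of Neurod1, Neurod2 and Neurod6, while Neurod4 was near 0 in both (0.21 in C and 0.22 in R). On the log2(TPM + 1) scale Neurod1 averaged 0.82 in C and 6.46 in R, Neurod2 0.46 in C and 5.499 in R, and Neurod6 0.13 in C and 4.34 in R. Neurod1 had 1069, 299.9 and 186 TPM in R2, R1 and R3 and was listed at 0 in R4, and C minus R was -5.64 on the log2 scale. Neurod2 had 523, 91.7 and 61.5 TPM in R4, R2 and R1 and 0.38 TPM in R3, with a difference of -5.04. Neurod6 had 843 and 199 TPM in R2 and R3 and was listed at 0 in the other R cells, with a difference of -4.21, or -2.42 when R2 was left out. Each R cell was therefore high in at least 1 of these 3 factors, and the mature neuron list mean was 6.30 to 6.65 in R against a median of 1.30 in C. TPM is a share of a library's transcripts, so fewer transcripts of a gene and more RNA of other genes cannot be told apart. Prox1 was high in R3 alone, at 90.3 TPM, with 9.35 TPM in R2, and its difference was -1.50, or -0.20 when R3 was left out. Of the 9 members 4 were at least 1 lower in C than in R (20.9% of all genes) and none was at least 1 higher (22% of all genes). Eomes (0.85), Insm1 (0.62), Neurog2 (0.52) and Tbr1 (0.20) had a higher mean in C, so 4 of 9 members did, against 65.4% of all genes. Insm1, Neurog2 and Tbr1 were listed at 0 in all 4 R cells, which allows a share of up to 75% by the floor of 3 cells, or 60.2% by the exact interval. The C and R ranges overlapped for every member.

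The factors met in a minority of cells. At 1 TPM, 78 C cells (54.9%, 46.4 to 63.3) held at least 1 member and 36 (25.4%, 18.4 to 33.3) held at least 2. At 10 TPM, 44 C cells (30.99%, 23.5 to 39.3) held at least 1 member and 17 (12.0%, 7.13 to 18.5) at least 2. The richest were C131, with 6 members at 10 TPM or more, and C138, C123, C126 and C140, with 4 each. Cells with at least 2 members at 1 TPM had a median of 4026 genes detected, against 3427.5 in the 64 cells with none, and the part that this difference plays in the counts was not tested.

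Eomes and Insm1 shared the most cells of any pair at 1 TPM and at 10 TPM. Only some pairs, none of them with Neurod1, were recounted with any value above 0. Among these, Eomes and Prox1 shared 23 cells, Insm1 and Prox1 21 and Eomes and Insm1 19. The first place of Eomes and Insm1 thus rests on leaving out values below 1 TPM. Insm1 reached a TPM of 1 in 12 of 26 Eomes cells (46.2%, 26.6 to 66.6) and in 9 of the other C cells (7.76%, 3.61 to 14.2). Read from the other side, Eomes was found in 57.1% of the 21 Insm1 cells and in 11.6% of the others. Of the other 5 members detected in at least 10 C cells, Insm1 alone was at least 25 points more frequent in Eomes cells, a size that 1.59% of the 10965 genes detected in at least 10 C cells reached. In Insm1 cells, Eomes alone reached that size, against 4.65% of genes. At 10 TPM the pair shared 8 cells, which was 50% of the 16 Eomes cells and 66.7% of the 12 Insm1 cells, against 3.17% and 6.15% of the other C cells. With cells chosen at 10 TPM and the other gene still counted at 1 TPM, Insm1 alone passed the 25-point size in high Eomes cells (4.84% of genes), and Eomes, Neurog2 and Prox1 did in high Insm1 cells (8.93% of genes).

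Neurog2 joined both of them. Of the 13 Neurog2 cells at 1 TPM, 7 held Eomes (53.8%, 25.1 to 80.8, against 14.7% of other C cells) and 6 held Insm1 (46.2%, 19.2 to 74.9, against 11.6%). These 2 of 5 members passed the 25-point size in Neurog2 cells, against 4.25% of genes, and the same 2, counted at 1 TPM, did in the high Neurog2 cells, against 5.36% of genes. At 10 TPM, 3 of 8 Neurog2 cells were high in Eomes, and the same 3 cells, C59, C126 and C135, were high in Insm1. The other 5 high Neurog2 cells had neither at 10 TPM. Neurod4 was found mostly with Eomes and Insm1 and less with Neurog2. Of its 5 cells at 1 TPM, 4 held Eomes, 4 held Insm1 and 1 held Neurog2. All 4 of its cells at 10 TPM were high in Eomes, 3 in Insm1 and 1 in Neurog2.

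Neurod1 was spread across cells with and without the others at 1 TPM. It was found with Eomes in 11 of its 32 cells (34.4%, against 13.6% of other C cells) and with Neurod2 in 9 (28.1%, against 5.45%), and no member passed the 25-point size in Neurod1 cells (0.648% of genes). Of its 6 cells at 10 TPM, 4 were high in Eomes, 3 in Insm1 and 3 in Neurod2. Counted at 1 TPM in these 6 cells, Eomes, Neurog2, Neurod2 and Insm1 passed that size, as did 14.7% of genes in this small group. Tbr1 at 10 TPM was found in C138 and C131 only, and both were high in Eomes, Neurod1 and Neurod2. In C138, Eomes (2744 TPM), Neurod1 (1947 TPM) and Tbr1 (1007 TPM) were all abundant. In C131, Neurod1 had 3125 TPM, Eomes 124.1 TPM, Tbr1 95.4 TPM, Insm1 76.1 TPM, Neurod4 20.6 TPM and Neurod2 10.4 TPM.

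Over all C cells, Prox1 was found at similar shares with and without Eomes. At 1 TPM it was found in 5 of 26 Eomes cells (19.2%, 6.55 to 39.4) and in 22 other C cells (18.97%, 12.3 to 27.3), and at 10 TPM in 2 of 16 Eomes cells (12.5%) and in 18 others (14.3%). Without the cells high in other lists, Prox1 was found at 1 TPM in 3 of 22 Eomes cells. Its share of all C cells left was then 18.3%. With Insm1, again over all C cells, the shares were further apart. Of 12 high Insm1 cells, 5 were high in Prox1 (41.7%, 15.2 to 72.3), against 15 others (11.5%, 6.60 to 18.3). In Prox1 cells no member passed the 25-point size at 1 TPM (2.7% of genes) or, counted at 1 TPM, in the high Prox1 cells (4.42% of genes). Of the 20 high Prox1 cells, 12 had no other member at 10 TPM.

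**Figure D2:**
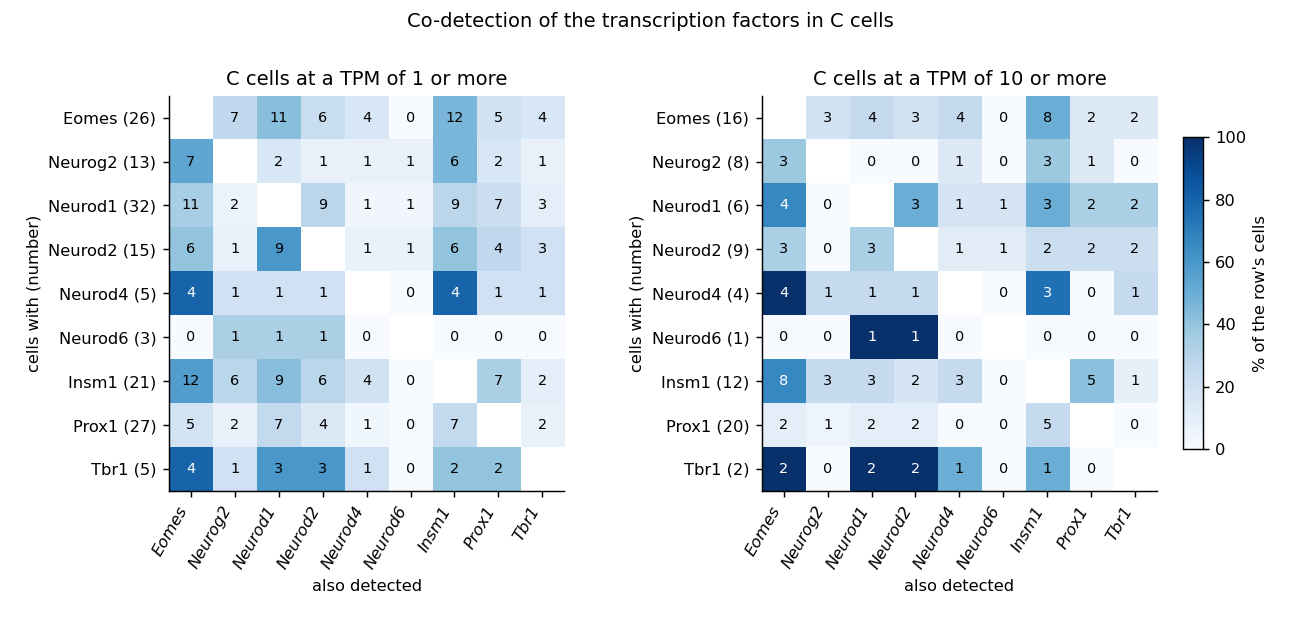
Co-detection of the 9 factors in C cells at a TPM of at least 1 (left) and at least 10 (right); rows give the cells with a factor (number in brackets), the printed number is how many of them also had the factor in the column, and the colour is that number as a percentage of the row. Eomes and Insm1 share 12 cells at 1 TPM and 8 at 10 TPM, while Eomes and Prox1 share 5 and 2.

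The factors separated when C cells were placed by their stem cell and cell cycle transcripts. For each cell the mean log2(TPM + 1) of the stem cell list was set against the higher of the means of an S phase list and a G2/M list. Levels of 6 for the stem cell list and 4 for the cycle lists, chosen after the values were seen, divide the C cells into 10 cycle-high and stem-high cells, 15 cycle-high and stem-low cells, 15 cycle-low and stem-low cells, and a large remainder of cycle-low and stem-high cells. The median number of genes detected was 3911, 3938, 4009 and 3610 in these 4 states. Of the cells high in other lists, 0, 3, 7 and 6 fell in them, in the same order.

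Cycle-high and stem-high cells carried Prox1 and Insm1 but not Eomes. Of these 10 cells, 6 were high in Prox1 (60%, 26.2 to 87.8) and 4 in Insm1 (40%, 12.2 to 73.8), at 10 TPM. Eomes did not exceed 0.71 TPM, Neurog2 0.49 TPM and Neurod1 0.79 TPM, and Neurod2, Neurod4 and Neurod6 were listed at 0 in all 10. With 10 cells, a count of 0 allows a share of up to 30% by the floor of 3 cells. The cycle-high and stem-low cells showed the opposite picture for Eomes: 9 of 15 were high in Eomes (60%, 32.3 to 83.7), 7 in Insm1 (46.7%), 3 in Neurog2, 3 in Prox1 and 2 each in Neurod1 and Neurod4. Without the cells high in other lists, Eomes was high in 8 of 12, Insm1 in 6 of 12 and Prox1 in 2 of 12 of them, and the counts of the 10 cycle-high and stem-high cells did not move.

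The cycle-low and stem-high cells, by far the most numerous, rarely held any of the factors at 10 TPM. Prox1 was high in 10 of them (9.80%), Neurog2 in 5 (4.90%), Neurod2 in 5, Eomes in 2 and Neurod1 in 1. Insm1 did not exceed 1.35 TPM in any of them. Of the 5 Neurod2 cells and 10 Prox1 cells, 2 and 8 remained without the cells high in other lists, and Neurod1 was then high in none. The 15 cycle-low and stem-low cells were high in Eomes in 5, in Neurod1 and Neurod2 in 3 each, in Neurod4 and Tbr1 in 2 each and in Insm1, Prox1 and Neurod6 in 1 each. Of these 15, 8 remained without the cells high in other lists, and all 5 Eomes cells were among them.

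**Figure D3:**
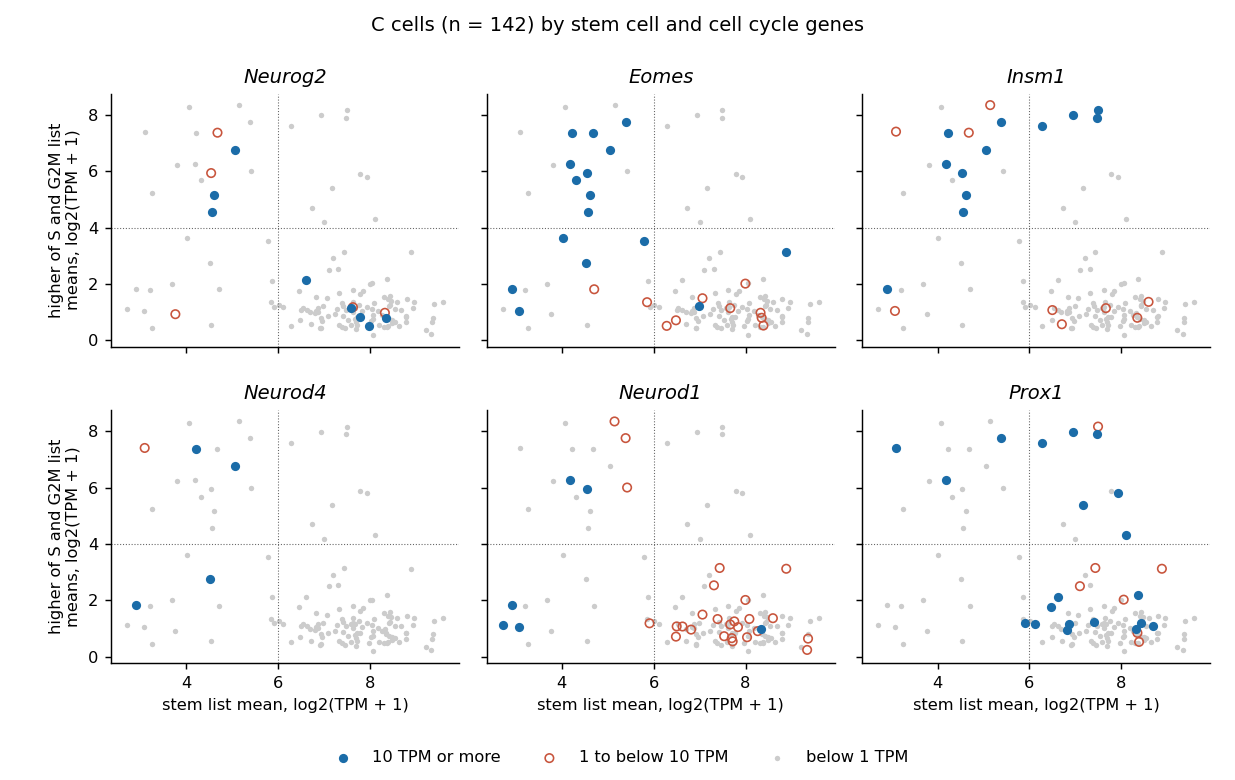
Each C cell placed by the mean log2(TPM + 1) of the stem cell list (horizontal) and the higher of the S phase and G2/M list means (vertical), with filled circles at 10 TPM or more, open circles at 1 to below 10 TPM and grey dots below 1 TPM; dotted lines mark the levels of 6 and 4. Eomes has 9 filled circles at the upper left and none at the upper right, where Prox1 has 6 and Insm1 has 4.

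The high Insm1 cells, divided by Eomes after the values were seen, differed in their stem cell list means. The 8 high Insm1 cells that were also high in Eomes had stem cell list means of 2.90 to 5.39 (median 4.55). The 4 others, C43, C75, C111 and C121, had Eomes listed at 0, stem cell list means of 6.28 to 7.50 and G2/M list means of 7.59 to 8.17. The stem cell ranges of these 2 groups of cells do not overlap. Prox1 was 171, 112.4 and 17.6 TPM in C43, C111 and C75 and was below 10 TPM in C121. Among the 8 cells with Eomes, Prox1 was high in 2 and listed at 0 in 4.

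**Figure D4:**
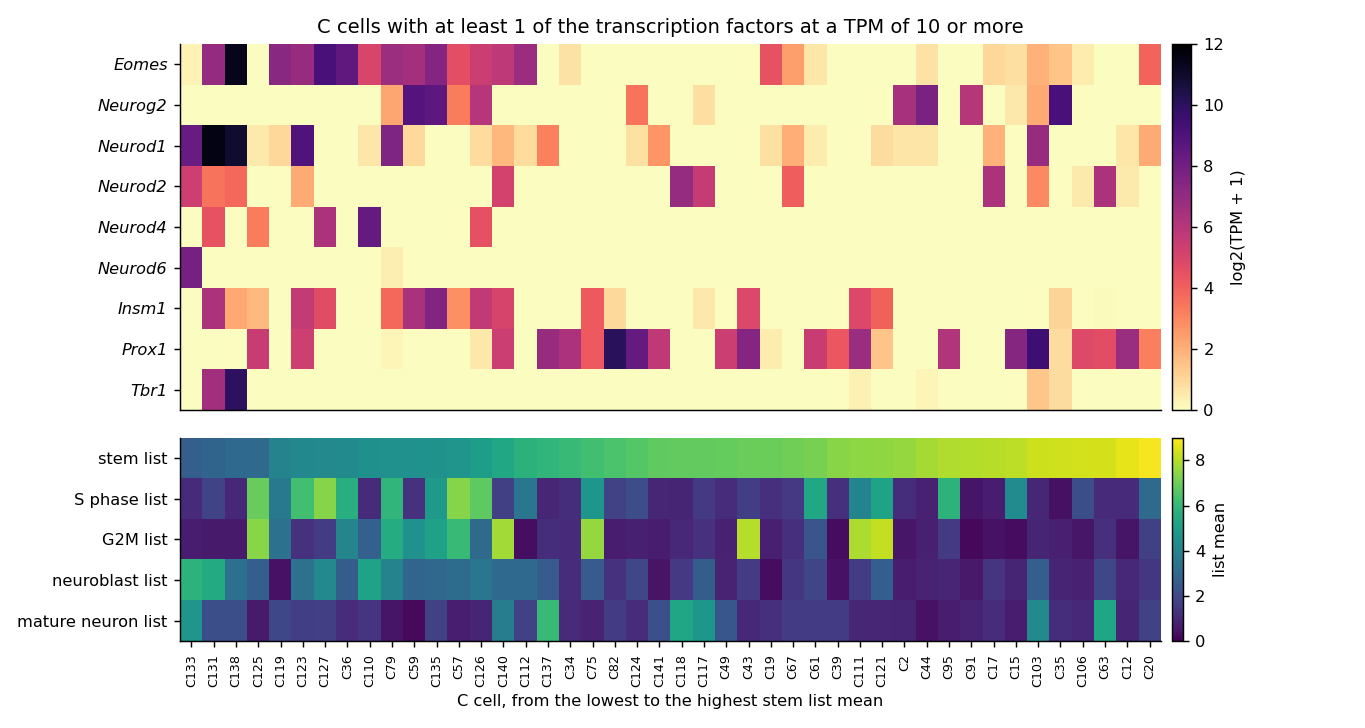
The 44 C cells with at least 1 factor at 10 TPM or more, in columns from the lowest to the highest stem cell list mean; the upper panel colours each factor by log2(TPM + 1) and the lower panel colours the mean log2(TPM + 1) of 5 gene lists. Eomes, Insm1 and Neurod4 lie mostly at the left, and most cells at the right hold Prox1, Neurod2 or Neurog2, although the last column, C20, holds Eomes.

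Cells high in Eomes carried fewer stem cell and more cell cycle and neuroblast transcripts. Their stem cell list mean was 4.86 ± 1.44 (SD, 16 cells), against 7.31 ± 1.43 in the other C cells. The S phase list mean was 3.92 ± 2.40 against 1.52 ± 1.37, the G2/M list mean 3.08 ± 2.26 against 1.10 ± 1.79, and the neuroblast list mean 3.09 ± 1.43 against 1.21 ± 0.78. The ranges of all 4 lists overlapped between the groups of cells. Aldoc, the aldolase of astroglia, averaged 5.76 ± 3.10 in the Eomes cells and 11.51 ± 2.89 in the others on the log2(TPM + 1) scale. Id4, an inhibitor of basic helix-loop-helix factors found in quiescent stem cells, was detected at 1 TPM in 7 of 16 Eomes cells and in 86.5% of the others. Mki67, a marker of dividing cells, was detected in 10 of 16 against 12.7%. Sox11, a factor of immature neurons, was detected in 14 of 16 against 40.5%, Elavl4, a neuronal RNA-binding protein, in 15 of 16 against 49.2%, and Igfbpl1, a gene of early neuroblasts, in 11 of 16 against 11.1%. Dcx, the microtubule protein of migrating neuroblasts, was detected in 4 of 16 against 2.38%.

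Cells high in Insm1 had the highest G2/M list mean of the 9 groups of cells defined by a member at 10 TPM. It was 5.11 ± 2.86 (12 cells), against 0.98 ± 1.41 in the others, and the S phase list mean was 4.30 ± 2.18 against 1.56 ± 1.44. Ccnb1, the mitotic cyclin, was detected in all 12 against 30% of the others, and Top2a, a DNA topoisomerase of dividing cells, in 11 of 12 against 30.8%. Aldoc averaged 4.15 ± 1.06 against 11.48 ± 2.86, and Id4 was detected in 3 of 12 against 86.9%. Both genes belong to the stem cell list. A list mean of at least 6, found in 4 of these 12 cells, therefore does not mean that each listed gene was high. The D-type cyclin Ccnd2 averaged 8.97 ± 2.34 against 4.81 ± 3.35.

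Cells high in Prox1 had stem cell transcripts at levels close to those of other C cells. Their stem cell list mean was 6.83 ± 1.44 (20 cells), against 7.07 ± 1.66 in the others. Hopx, a homeodomain protein of quiescent stem cells, was detected in 19 of 20 against 90.98% of the others, and Gfap, the filament of radial stem cells and astrocytes, in 18 of 20 against 81.1%. Dcx was detected in 0 of 20 against 7 of the others. Their G2/M list mean was 2.64 ± 3.05 against 1.11 ± 1.62, with 5 of 20 cells at 4 or more against 9 of the others. The high Prox1 cells had a median of 4161.5 genes detected, against 3618.5, and the part of that gap in these values was not tested.

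Neurog2 was also found in cells with stem cell transcripts. The 8 high Neurog2 cells had a stem cell list mean of 6.57 ± 1.59, against 7.06 ± 1.63 in the others, and Hopx was detected in all 8. That mean joins C59, C126 and C135, at 4.56 to 5.05, with 5 cells at 6.62 to 8.35. Over all 8 cells, single stem cell genes went both ways on the log2(TPM + 1) scale. Gfap averaged 8.13 ± 3.92 against 5.28 ± 3.80, Aldoc 8.98 ± 4.09 against 10.97 ± 3.37 and Hopx 5.62 ± 2.60 against 6.59 ± 3.46. The stress- and differentiation-responsive gene Gadd45g was detected in 7 of 8 against 50% of the others. Their astrocyte list mean was lower, at 1.73 ± 0.76 against 2.98 ± 1.39.

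The cells high in Neurod1 had neuroblast transcripts. The 6 high Neurod1 cells had a neuroblast list mean of 4.13 ± 1.25, against 1.30 ± 0.87 in the others, and a stem cell list mean of 4.29 ± 2.11 against 7.16 ± 1.502. Of these 6, C79 and C123 had S phase list means of 5.94 and 6.27, and the other 4 were below 2. C103 and C133 were cells high in other lists, and without them the neuroblast list mean was 4.06 ± 1.01 in 4 cells. The 9 high Neurod2 cells had a mature neuron list mean of 3.44 ± 1.67, against 1.40 ± 0.83 in the others, with a range of 1.13 to 5.33 against 0.15 to 6.08. Without the cells high in other lists, a definition that includes the mature neuron list, 4 Neurod2 cells were left and the means were 1.77 ± 0.50 against 1.30 ± 0.60. It was at least 4 in 4 of 9 Neurod2 cells, against 3 of the others. These 9 cells also had more genes detected, with a median of 4966 against 3660, and 5 of them were high in other lists. Whether more than 1 cell contributed to such libraries was not tested.

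The sequence of onset was described along an order of the C cells that were not high in other lists. The order is their rank on the first principal component of the 1000 most variable genes outside all lists and outside the 9 members, which held 7.13% of the variance. Its direction was set so that the cell cycle lists are higher and the stem cell list lower at the end. The members took no part in it, but the direction of stem cell and cell cycle genes along it is no finding. The first bin held 26 cells and the other 4 bins 25 each. The stem cell list mean was 6.96, 7.49, 7.82, 7.75 and 6.22 from the first bin to the last, and the S phase list mean was 1.08, 1.08, 1.03, 1.78 and 4.14.

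The factors gathered in the last bin. At 10 TPM, 4, 3, 5, 6 and 19 cells of the 5 bins held at least 1 member, and 1, 0, 0, 1 and 11 held at least 2. The median number of genes detected was 3731.5, 3070.0, 3534, 3643 and 4191 in these bins. Insm1 was high in 0, 0, 0, 1 and 10 cells, Eomes in 1, 1, 1, 2 and 10, and Prox1 in 2, 1, 2, 2 and 9. Neurog2 was spread more evenly, with 0, 0, 2, 3 and 3 cells. Neurod4 was found in the last bin only, with 4 cells at 10 TPM. Neurod2 went the other way, with 2, 1, 0, 0 and 1 cells.

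Positions along the order are given as a percentage of its cells, counted from its first cell. The first cell at 10 TPM stood at 6.35% for Prox1, 15.1% for Eomes and Neurod1 (both in C138), 43.7% for Neurog2, 75.4% for Insm1 and 86.5% for Neurod4. C138, also high in Neurod2 (12.6 TPM), had a stem cell list mean of 3.07 and a neuroblast list mean of 3.34. C142, near the start of the order, had a stem cell list mean of 3.20. An early place therefore does not always mark a cell rich in stem cell transcripts. A first position rests on 1 cell, so the median position of the high cells is the steadier value. It was 74.6% for Neurog2 (8 cells), 84.5% for Prox1 (16), 88.9% for Eomes (15), 89.7% for Neurod1 (4), 91.3% for Insm1 (11) and 92.9% for Neurod4 (4), and 20.6% for Neurod2 (4). At 1 TPM the median was 75.4% for Neurog2, 80.95% for Prox1, 77.4% for Eomes, 90.5% for Insm1 and 96.8% for Neurod4, so Prox1 and Eomes change places. Neurod1 and Neurod2 stood at 32.9% and 17.9% at that level, and the Neurod1 value includes its many cells below 10 TPM.

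For comparison, at 10 TPM the median position was 67.1% for Ccnd2, 86.5% for Sox11 and 90.9% for Mki67. Mcm2, a helicase subunit of DNA replication, and Dcx both stood at 92.9%. Neurog2 therefore lay between Ccnd2 and Mki67, while Eomes, Insm1 and Neurod4 lay within a few points of Mki67. Lower quartiles were 52.2% for Prox1, 62.1% for Neurog2, 77.4% for Eomes and 89.3% for Insm1, so the ranges of these factors overlap and their sequence is not resolved beyond the spread between cells.

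Over the ordered cells, Spearman's rho with the order was 0.26 for Insm1, 0.24 for Neurog2, 0.23 for Prox1, 0.15 for Neurod4, 0.11 for Eomes and 0.06 for Neurod1. It was -0.09 for Tbr1 and Neurod6 and -0.15 for Neurod2. Thus 6 of 9 members had a rho above 0, the share found for 66% of the 11296 genes ranked, and 3 of 9 reached 0.2, against 15.6%. These rho values describe cells that share the class and the normalization, and in sparse data they are weak. When cells were ordered instead by the cell cycle lists minus the stem cell list, median positions at 1 TPM were 73.02% for Prox1, 75.4% for Neurog2, 84.5% for Eomes, 90.5% for Insm1 and 93.7% for Neurod4. Under that order Neurod2 stood at 74.6% and Tbr1 at 85.7%. The 2 orders themselves had a rho of 0.22 with each other.

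**Figure D5:**
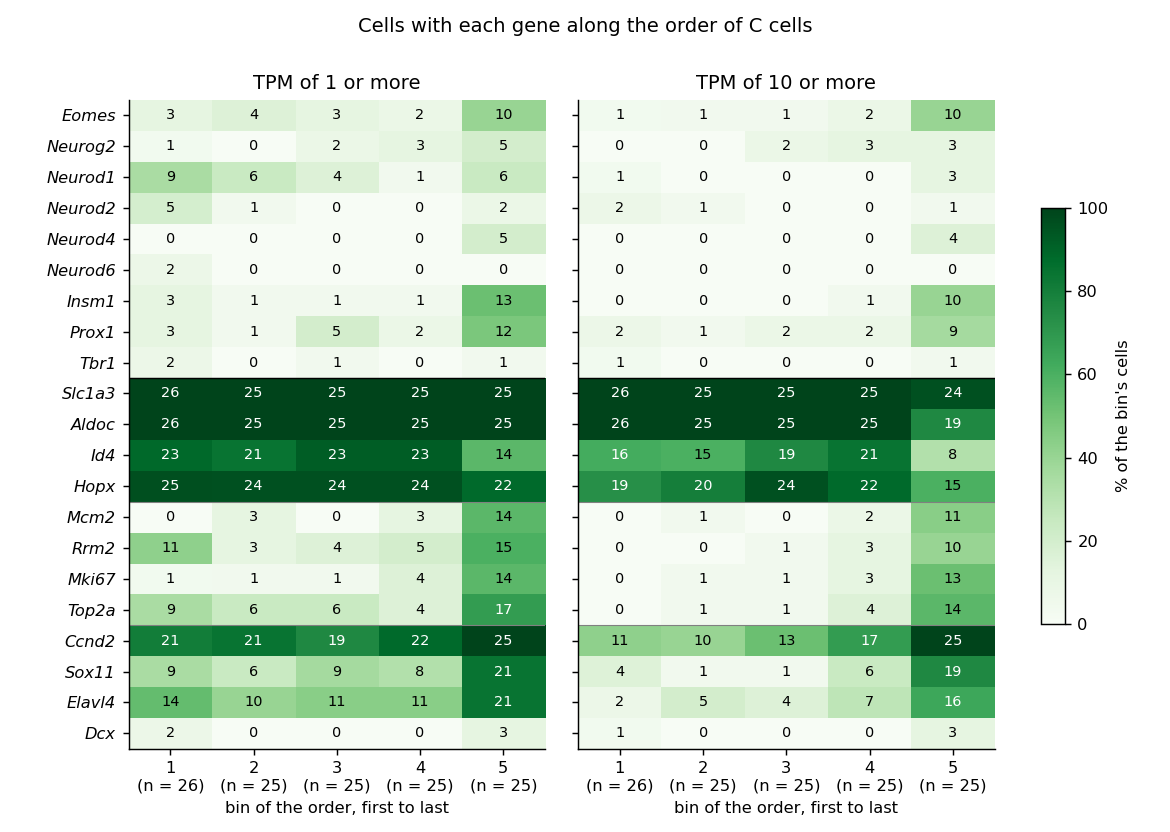
Number of cells with each gene in 5 bins of the order of C cells, from first to last, at a TPM of at least 1 (left) and at least 10 (right), with the colour giving the percentage of the bin's cells; the 9 factors stand above the black line, followed by stem cell, cell cycle and progeny genes. Insm1, Eomes and Prox1 have 10, 10 and 9 cells at 10 TPM in the last bin and no more than 2 in any other bin.

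Other transcription factors and regulators of the lineage were examined as a list of 54 genes, chosen with earlier results of these data known. Of these, 44 passed the filter on low values. Their median C minus N difference was 0.59, against 0.17 for all genes, with 29 of 44 higher in C (63.3% of all genes), 15 at least 1 higher (9.98% of all genes) and 3 at least 1 lower (4.19% of all genes). Along the order their median rho was 0.13, against 0.06 for all genes, with 34 of 44 above 0 (66% of all genes) and 17 at 0.2 or more (15.6% of all genes).

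Id4, Lhx2 and Nfix had the largest differences of this list in favour of C. Id4 was 4.17 higher in C than in N, Lhx2, a LIM homeodomain factor of forebrain progenitors, 3.38 higher, and Nfix, a nuclear factor I protein, 2.79 higher. The lowest in C were Nhlh2 (-1.60), Id3 (-1.42) and the neuronal zinc finger factor Myt1l (-1.35). Nhlh2 was high in the 4 N cells with Tbr1, Reln and Trp73, at 1262, 634.5, 169 and 89.99 TPM in N9, N19, N18 and N13, and its difference was -0.46 without them, an alternative chosen after seeing the data. Nfix (rho 0.42), Sox11 (0.39), Pax6 (0.38) and Nfib (0.38) had the highest rho with the order of C cells. Id3 (-0.29), Nhlh2 (-0.25), Id4 (-0.24) and Sox21 (-0.22) had the lowest.

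The list was also read against the 9 factors cell by cell. Comparing the 36 C cells with at least 2 members at 1 TPM to the 64 with none, the median list gene was detected 9.20 points more often, against 5.90 points for all genes. The 25-point size was reached by 4 of 44, Sox11 (77.8% against 32.8%), Bcl11a (50% against 17.2%), Tox3 (44.4% against 14.1%) and Zbtb18 (75% against 46.9%), and by 4.09% of all genes. Bcl11a, Tox3 and Zbtb18 are named because they passed that size, after their values were seen. Tcf4, the E-protein partner of basic helix-loop-helix factors, was detected in every C cell, at 7.89 ± 1.99 on the log2(TPM + 1) scale. Nfix was detected in all 36 cells with at least 2 members and in 51 of the 64 with none, and Nfib in 35 of 36 and in all 64. Id4 went the other way, in 22 of 36 (61.1%) against 58 of 64 (90.6%).

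Across all C cells, the genes whose levels were most like those of Insm1 by Spearman's rho were mostly cell cycle genes. They were Cks2, a subunit of cyclin-dependent kinases (0.43), the linker histone gene Hist1h1b (0.42), the replication endonuclease Fen1 (0.41), the mitotic regulator Fbxo5 (0.41) and the chromatin remodeller subunit Smarce1 (0.40). For Eomes they were Elavl4 (0.42), Prmt8 (0.41), Igsf8 (0.39), Smcr7l (0.38) and Dck (0.37). For Neurod2 they were Atp6v0a1, a subunit of the vesicular proton pump (0.46), Actl6b, a neuronal chromatin remodeller subunit (0.43), the presynaptic scaffold gene Pclo (0.41), Mapk1ip1 (0.40) and Rnf112 (0.40). Pclo was detected in 8 of 9 high Neurod2 cells and 19 others. For Prox1 the nearest gene was Eif2s3x (0.36), followed by Arhgap19 (0.35), 4833420G17Rik (0.35), Mpp3 (0.34) and Cox15 (0.34). For Neurog2 they were Nudt16 (0.37), Apeh (0.37), Fdxr (0.36), Rnf44 (0.35) and Lrsam1 (0.35). For Neurod1 they included Pigb (0.33), Hunk (0.33), Ccng2 (0.32) and Trim65 (0.31). These are descriptions over cells of 1 class that share zeros and normalization.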

How the data were processed

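Libraries of single dentate gyrus cells were prepared by NuGEN Ultralow V2 chemistry, as the labels' protocols say. The deposited values are TPM, estimated with RSEM on build mm9 per the submitters' processing notes. The aligner, annotation and cell filter were not given in the sources used here. TPM keeps no depth, so detection (TPM of at least 1, or 10) also depends on unknown sequencing effort. From the deposited TPM, log2(TPM + 1) was computed with Python 3.11.15, numpy 2.4.6, pandas 2.3.3 and scipy 1.17.1. Columns were assigned to C, N or R by title. The filter on low values kept 12007 genes at 1 TPM in at least 5% of libraries. Means, shares with exact 95% intervals and Spearman's rho were computed, with no test between classes, since each is 1 sample. The ordering step was tested on simulated data. Named genes were the 9 members, fixed stem cell, cell cycle and progeny genes, the 5 genes most like each member in at least 10 C cells, and, of the 54 lineage regulators, the 4 highest and 4 lowest by rho with the order, the 3 most different between C and N in each direction and the 3 most often detected in cells with at least 2 members. The members and lists were chosen with earlier results of these data known. Alternatives were the pseudocount, detection level, filter, cells high in other lists, the order and leaving out each R cell. Results for some named genes are not reported here.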

Additional observations from a re-analysis of the deposited data

Results flagged for a closer look

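In the 4 R cells, the Eomes value of R2 (0.43 TPM) stood apart from the other 3, which were listed at 0. The Neurod4 value of R1 (0.85 TPM) stood apart in the same way. Both lie below the detection level of 1 TPM, and chance flags about 1 in 20 groups. Because the other 3 values were listed at 0, any value above 0 would stand apart, so that rate need not hold here.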

How the results depend on the processing

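No paired analysis was possible because the numbers in the titles only count cells and the results come from no test. Of 329 values recomputed under 21 other settings, 279 moved by less than the spread between cells or stayed within 1.5 times a count, and 50 moved further. Changes of sign were limited to differences within the spread between cells, such as the C minus N differences of Neurod2 and Neurod6 without the cells high in other lists (-0.17 and -0.28). The 78 C cells with at least 1 member were 44 at 10 TPM. The 36 C cells with at least 2 members were 17 at 10 TPM and 83 with any value above 0. Members with a higher mean in C than in N numbered 5 to 7 of 9, and those higher in C than in R 4 to 5 of 9, also over leaving out each R cell. Without R2 the C minus R difference of Neurod6 was -2.42 against -4.21. The levels that divide the cell states, and the states without cells high in other lists, were chosen as alternatives after seeing the data: high Eomes in cycle-high and stem-high cells was found in 0 cells at stem cell levels of 5.5 and 6.5 and in 1 of 12 at a cycle level of 3. Depth is unknown, so a factor below 1 TPM was not detected rather than absent.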
